A study of Mus musculus with 19 samples.

Results

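The 10 genes described here carry, sense, store or hormonally control iron in the liver: Hamp, Hamp2, Tfr2, Hfe, Tfrc, Slc39a14, Slc40a1, Cp, Fth1 and Ftl1. They were chosen by name for their known function, as the rows of the count table with these symbols, and make up 10 of its 24537 genes. The table comes from RNA sequencing of hepatocytes, the parenchymal cells of the liver, freed by a 2-step perfusion from 19 male wild-type C57BL/6J mice, 1 library per mouse. Young mice (n = 10) were 5 months old and old mice (n = 9) were 24 months old, with no other treatment or allele in the labels. Mice were culled on 2 days that lay 23 days apart: 5 young and 5 old mice on the first, 5 young and 4 old mice on the second. Each mouse is named by its library number. The series title sets the study in work on interferon signalling and liver cancer with age, and the comparison asked here is how iron gene transcripts differed between the ages.

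Hepcidin, the peptide encoded by Hamp, is made by hepatocytes and lowers iron in the blood by blocking and degrading ferroportin, the iron exporter encoded by Slc40a1. Hamp transcription is known to rise with iron through bone morphogenetic protein (BMP) signals to SMAD proteins, with help from Hfe and Tfr2, and to rise in inflammation through interleukin 6 and STAT3. Inside the cell, iron regulatory proteins bind a hairpin called the iron responsive element when iron is scarce: bound at the start of a transcript it holds back translation, and bound after the coding part it protects the transcript from decay.

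The sequences through which these controls act are shown first, since the members differ in them. The 250 bases before the Hamp start site (RefSeq, GRCm38.p6, chr7:30944030-30944279, minus strand) and before that of its neighbour copy Hamp2 (chr7:30924182-30924431, minus strand) are printed 5′ to 3′. Capitals mark matches, on either strand, to GGCGCC, the core of the known BMP response element, and to TTCNNNGAA, the consensus bound by STAT proteins.
Hamp: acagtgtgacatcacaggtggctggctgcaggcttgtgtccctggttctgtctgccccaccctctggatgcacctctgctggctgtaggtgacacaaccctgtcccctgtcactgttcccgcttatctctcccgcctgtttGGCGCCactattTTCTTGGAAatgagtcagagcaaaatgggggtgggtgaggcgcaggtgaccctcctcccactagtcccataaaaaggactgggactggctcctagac
Hamp2: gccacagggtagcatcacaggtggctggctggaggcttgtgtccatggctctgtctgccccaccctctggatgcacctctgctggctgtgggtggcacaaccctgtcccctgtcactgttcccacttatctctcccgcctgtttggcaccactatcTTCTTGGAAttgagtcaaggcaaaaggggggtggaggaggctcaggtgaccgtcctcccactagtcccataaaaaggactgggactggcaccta

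In Hamp the GGCGCC match lies 109 to 104 bases before the start site and the TTCNNNGAA match 97 to 89 bases before it. In Hamp2 the TTCNNNGAA match lies at 94 to 86 bases and the window holds no GGCGCC. Of 247 aligned bases, 227 were identical (91.9%), with 20 substitutions and no gaps. A single one, G145A, falls in the GGCGCC match, counting from 1 at the 5′ end of the Hamp window and writing the Hamp base first. Tfrc was the only other member with a match, a GGCGCC at 89 to 84 bases before its start site. The table held promoters for 8 of the 10 members, all but Slc40a1 and Slc39a14. Among all 32851 promoters of this length, 9.59% held GGCGCC and 7.02% held TTCNNNGAA. A match is a description of the letters only.

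A search of GENCODE M21 transcripts on GRCm38 for the iron responsive element found it in 4 of the 10 members, against 294 of 21877 coding genes (1.34%). The motif was a C, any 5 bases and then CAGTGN, where those 5 bases pair with the 5 that follow the loop (G with T allowed). Capitals mark the bulged C and the loop. The ferritin chains and ferroportin each hold 1 match in the 5′ untranslated region (UTR), and Tfrc holds 4 in the 3′ UTR. Tfrc was the only gene with 3 or more in 1 transcript.
Fth1, 5′ UTR, chr19:9982732-9982761, plus strand: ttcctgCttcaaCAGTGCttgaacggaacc
Ftl1, 5′ UTR, chr7:45459778-45459807, minus strand: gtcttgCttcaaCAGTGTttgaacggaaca
Slc40a1, 5′ UTR, chr1:45925464-45925493, minus strand: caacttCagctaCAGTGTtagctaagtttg
Tfrc, 3′ UTR, chr16:32631219-32631248, plus strand: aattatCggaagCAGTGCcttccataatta
Tfrc, 3′ UTR, chr16:32631598-32631627, plus strand: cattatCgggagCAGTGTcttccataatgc
Tfrc, 3′ UTR, chr16:32631663-32631692, plus strand: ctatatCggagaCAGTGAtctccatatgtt
Tfrc, 3′ UTR, chr16:32631710-32631739, plus strand: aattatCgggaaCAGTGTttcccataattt

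Libraries held 17381439 to 20287628 counts over genes. Levels are given as counts scaled to a common library total (CPM) after correction by the trimmed mean of M-values. Summed hepatocyte markers, most of them Alb counts, were at 96253 to 164065 CPM in young and 121844 to 204418 CPM in old mice. Of these 10 markers 2 were higher and 4 lower in old mice (median log2 fold change -0.22), while 13 of 14 macrophage, 9 of 12 endothelial and 11 of 12 stellate cell markers were higher. Over all genes tested 16.3% were higher and 14.5% lower. Summed macrophage markers ran from 107 to 528 CPM in young and from 70.4 (mouse 1183) to 3370 CPM (mouse 1187) in old mice. Endothelial sums were 198 to 358 CPM in young and 211 to 663 CPM in old mice, and stellate sums 52.5 to 139 and 144 to 513 CPM. On the first cull day the young mice 1184, 1186 and 1188 stood apart by their acute phase transcripts, with Saa1 at 3185 to 8275 CPM against 15.8 to 33.9 CPM in the other young mice, so some results are also given without them. For genes of the acute phase this leaves out mice by the level that is compared, so such values are descriptions, given with no p.

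Age moved 3 of the 10 iron genes past an adjusted p of 0.05. Transcripts of the exporter ferroportin, Slc40a1, rose to 1.59 times the young level, while those of the transferrin receptor Tfrc and of the ferritin light chain Ftl1 fell, to 0.69 and 0.80 times. The hepcidin genes, the sensors Tfr2 and Hfe, the importer Slc39a14, the ferroxidase Cp and the heavy chain Fth1 did not pass. Over all 12269 genes tested, 30.9% passed (16.3% higher in old mice and 14.5% lower), so 3 of 10 is near the background share. The median log2 fold change was 0.06 over the 10 genes and -0.00 over all genes. All 10 passed the filter on low counts. The calls of Slc40a1, Tfrc and Ftl1 each held in the 19 fits that left out 1 mouse. The share of all genes called by age was 24.5% to 32.1% in those 19 fits, with 24.5% without old mouse 1187. It was 3.67% on the first cull day alone, 19.3% on the second alone, 27.2% without the 3 young mice and 13.5% with a covariate for other liver cells. Other settings gave 32.6% with limma-voom, 33.5% with DESeq2, 26.6% with library totals alone, 26.5% with no cull day term and 29% with a filter of 1 CPM in 9 libraries.

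**Figure D1:**
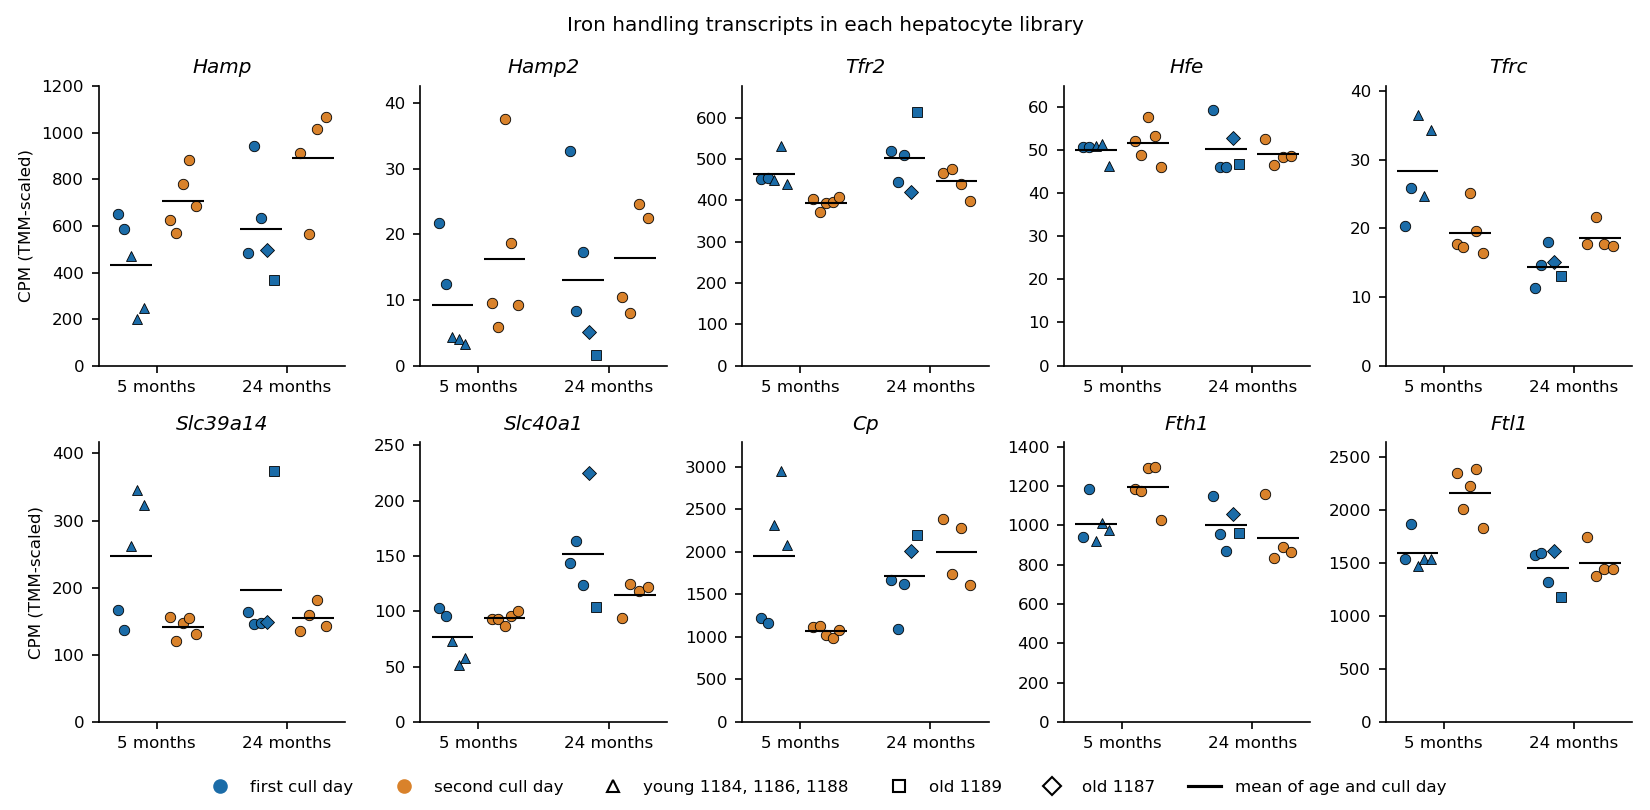
CPM of each iron gene (vertical axis, from 0) in each of the 19 libraries, by age (horizontal axis), with blue for the first cull day and orange for the second. The horizontal lines are means of an age on a cull day; triangles mark young mice 1184, 1186 and 1188, which are lowest for Slc40a1, and the diamond marks old mouse 1187, which is highest for it at 225 CPM.

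Ferroportin is the only known cellular iron exporter. Slc40a1 lies on chromosome 1 (45908070 to 45925594, minus strand). On the first cull day young mice had 103, 95.8, 73.4, 51.7 and 57.9 CPM and old mice 144, 164, 124, 225 and 104 CPM. On the second, young mice had 92.7, 93.3, 87.1, 96.0 and 100 CPM and old mice 94.1, 125, 118 and 122 CPM. Within the first day the ages did not overlap, and on the second a single old mouse, 1236, lay among the young. Over both days 8 of 9 old mice were above every young mouse. The mean was 85.1 ± 18.0 CPM at 5 months (SD, n = 10) and 136 ± 39.3 CPM at 24 months (SD, n = 9). This is a log2 fold change of 0.67 ± 0.16 (SE, adjusted p = 0.005507). The rise passed on each cull day alone, at 0.99 on the first (adjusted p = 0.04945) and 0.29 on the second (adjusted p = 0.04386).

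Ferroportin is also abundant in liver macrophages, and their markers moved with age here. In bulk samples more cells of a type and more RNA per cell cannot be told apart. Old mouse 1187 had the highest Slc40a1 level and the highest macrophage sum, and without it the log2 fold change was 0.55 (adjusted p = 0.007648). Old mouse 1183 had the lowest macrophage sum of all 19 libraries, 70.4 CPM, and its Slc40a1 level of 164 CPM was above every young mouse. With a score of macrophage, endothelial and stellate markers as a covariate the Slc40a1 difference was 0.63 (adjusted p = 0.04474). Most markers in this score were higher in old mice, and stellate sums did not overlap between ages (at most 139 CPM in young, at least 144 CPM in old). Fits with this covariate therefore cannot separate age from other-cell content, here and for the other genes below. Without young mice 1184, 1186 and 1188, the lowest 3, the difference was 0.41 (adjusted p = 0.03458).

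Tfrc encodes transferrin receptor 1, which takes up transferrin-bound iron, and lies on chromosome 16 (32608896 to 32632794, plus strand). Young mice of the first cull day had 20.4, 25.9, 36.5, 24.7 and 34.3 CPM and their old counterparts 11.4, 14.8, 18.0, 15.1 and 13.0 CPM, with no overlap. On the second day young mice had 17.8, 17.3, 25.2, 19.6 and 16.5 CPM and old mice 17.8, 21.6, 17.7 and 17.5 CPM, so that the old range lay inside the young one. Over both days the means were 23.8 ± 6.99 CPM (SD, n = 10) and 16.3 ± 3.07 CPM (SD, n = 9), and Tfrc fell by 0.53 ± 0.15 on the log2 scale (SE, adjusted p = 0.01475). The log2 fold change was -0.97 on the first day (adjusted p = 0.0272) and -0.04 on the second (adjusted p = 0.8517). The call was lost without young mice 1184, 1186 and 1188 (-0.30, adjusted p = 0.09314). Mice 1184 and 1188 had the highest Tfrc levels of all, 36.5 and 34.3 CPM.

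The ferritin chains build the shell that stores iron, the heavy chain oxidising iron and the light chain helping to form the mineral core. Ftl1 lies on chromosome 7 (45457944 to 45459886, minus strand) and Fth1 on chromosome 19 (9982646 to 9985111, plus strand). For Ftl1, first-day young mice had 1534, 1871, 1473, 1537 and 1537 CPM and old mice 1576, 1597, 1318, 1613 and 1175 CPM, which overlapped. Second-day young mice had 2349, 2007, 2230, 2383 and 1833 CPM and old mice 1744, 1375, 1438 and 1440 CPM, so the highest of the 4 old mice was under the lowest of the 5 young ones. The mean of Ftl1 was 1875 ± 355 CPM at 5 months (SD, n = 10) and 1475 ± 175 CPM at 24 months (SD, n = 9), and it fell by 0.31 ± 0.09 on the log2 scale (SE, adjusted p = 0.01767). By day the log2 fold change was -0.13 (adjusted p = 0.5549) and -0.52 (adjusted p = 0.005447). The call was lost with library totals alone as the scaling (-0.26, adjusted p = 0.06391) and with the other-cell covariate (-0.29, adjusted p = 0.113).

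Fth1 moved less than its partner. Young mice ranged from 921 over a median of 1101 to 1294 CPM and old mice from 836 over 957 to 1159 CPM, with 4 old mice below every young one. Its log2 fold change of -0.17 ± 0.09 (SE) did not pass (adjusted p = 0.1544). By day it was -0.01 on the first (adjusted p = 0.9609) and -0.34 on the second (adjusted p = 0.05077). It passed with limma-voom (-0.22, adjusted p = 0.04882). Both chains have processed pseudogenes in the mouse, and how reads with several matches were handled is not given in the sources used here.

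Hamp is the hepcidin gene (chromosome 7, 30942369 to 30944029, minus strand). On the first cull day young mice had 650, 589, 471, 199 and 248 CPM and old mice 486, 943, 635, 499 and 369 CPM. On the second, young mice had 625.3, 568.5, 780, 884 and 688 CPM and old mice 912, 566, 1016 and 1069 CPM. The ages overlapped on both days, although 4 of 9 old mice were above every young mouse. The mean was 570 ± 215 CPM at 5 months (SD, n = 10) and 722 ± 263 CPM at 24 months (SD, n = 9). The log2 fold change, 0.39 ± 0.21 (SE), did not pass (adjusted p = 0.1704). The 2 lowest libraries were young mice 1186 and 1188, and without these and 1184 the log2 fold change was 0.17. With the other-cell covariate it was 0.70 (adjusted p = 0.05697).

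Hamp2 is the paralogue next to Hamp (30922372 to 30924181 on the same strand), and its hormone role is less clear than that of Hamp. It was measured at a far lower level and varied more. Young mice had 3.29 to 37.7 CPM (median 9.44) and old mice 1.62 to 32.7 CPM (median 10.4). The lowest library, old mouse 1189, held 31 counts, so these levels stand well above the floor of 3 counts. The log2 fold change of 0.27 ± 0.48 (SE, adjusted p = 0.7017) lay within the spread between mice. Hamp2 made up 2.01% ± 1.14 of Hamp and Hamp2 counts at 5 months (SD, n = 10, from 0.92% to 4.61%) and 2.03% ± 1.76 at 24 months (SD, n = 9, from 0.44% to 6.30%). A share of this size may also depend on how any reads matching both genes were assigned, which is not stated. How alike the Hamp and Hamp2 transcripts are was not tested.

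Tfr2 and Hfe are membrane proteins through which hepatocytes sense transferrin iron. Tfr2 (chromosome 5, 137569840 to 137588081, plus strand) ranged from 371 over a median of 424 to 530 CPM in young mice and from 399 over 467 to 614 CPM in old mice. Its log2 fold change of 0.14 ± 0.07 (SE) missed the threshold (adjusted p = 0.121). It passed with library totals alone (0.18, adjusted p = 0.02937) and with limma-voom (0.17, adjusted p = 0.02567). Hfe (chromosome 13, 23702034 to 23710854, minus strand) was the steadiest member, at 50.8 ± 3.34 CPM for the young (SD, n = 10) and 49.6 ± 4.45 CPM for the old group (SD, n = 9). Its log2 fold change was -0.03 ± 0.06 (SE, adjusted p = 0.7094).

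Slc39a14 encodes ZIP14, which imports iron not bound to transferrin, and Cp encodes ceruloplasmin, the plasma ferroxidase that helps exported iron onto transferrin. Both are known acute phase genes. Slc39a14 (chromosome 14, 70303467 to 70351424, minus strand) was at 263, 345 and 323 CPM in young mice 1184, 1186 and 1188 and at 120 to 167 CPM in the other young mice. Among old mice only 1189 stood as high, at 373 CPM, against 135 to 181 CPM in the others. The log2 fold change was -0.12 ± 0.20 (SE, adjusted p = 0.6794), and 0.22 without the 3 young mice.

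Cp (chromosome 3, 19957054 to 19992998, plus strand) showed the same 3 young mice at the top, at 2319, 2949 and 2084 CPM, while the other young mice lay between 982 and 1219 CPM. Old mice had 1670, 1099, 1617, 2017 and 2196 CPM on the first day and 2392, 1741, 2279 and 1606 CPM on the second. On the second day all old mice were thus above all young mice, whose highest level was 1134 CPM. Over both days the log2 fold change of 0.34 ± 0.20 (SE) did not pass (adjusted p = 0.2162). It passed on the second day alone (0.91, adjusted p = 0.000998), and was 0.75 without young mice 1184, 1186 and 1188. On the first day alone it was -0.18 (adjusted p = 0.7117), and with the other-cell covariate -0.07.

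**Figure D2:**
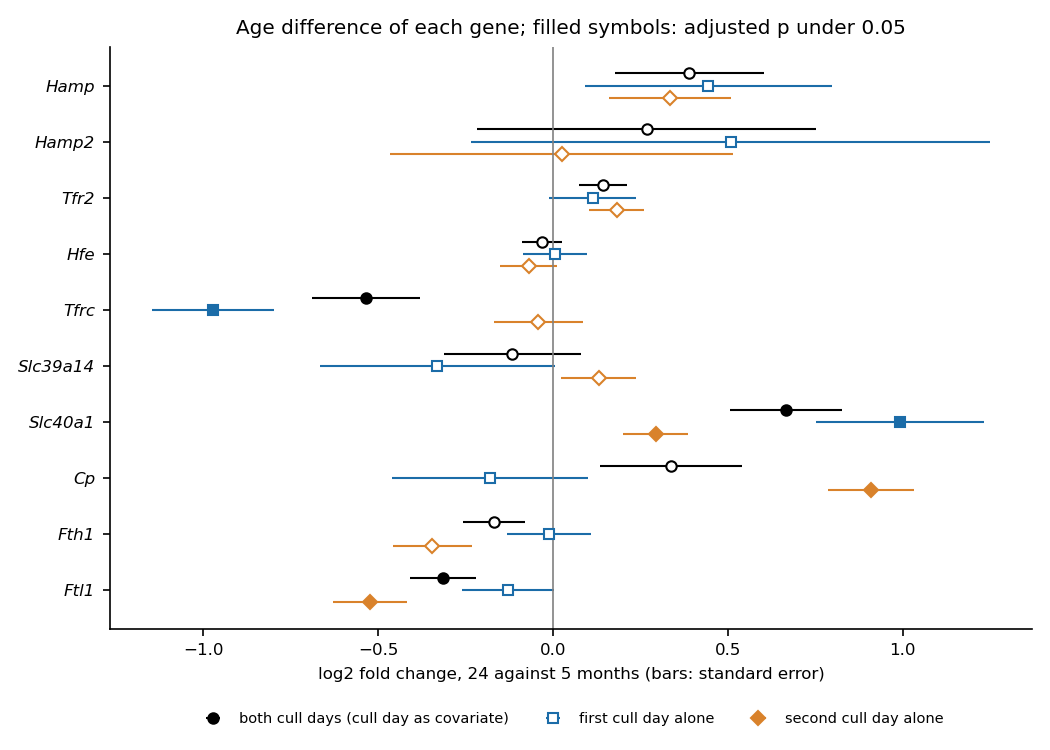
Log2 fold change of each iron gene, 24 against 5 months (horizontal axis, bars are standard errors), over both cull days (circles), on the first alone (squares) and on the second alone (diamonds), with filled symbols for an adjusted p under 0.05. Slc40a1 is filled in all 3 fits, Tfrc on the first day (-0.97) and not on the second (-0.04), and Ftl1 and Cp on the second day alone among single days.

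Since several members differed more on 1 day, the interaction of age and cull day was tested. None of the 10 genes passed in edgeR or DESeq2, nor did any of the 12269 genes in edgeR (0% called, 6.51% at an unadjusted p under 0.05). At an unadjusted p under 0.05 there were 4 members: Tfrc (p = 0.000762), Cp (p = 0.003954), Slc40a1 (p = 0.02238) and Ftl1 (p = 0.0277). limma-voom called 2 of them, Cp (adjusted p = 0.01613) and Tfrc (adjusted p = 0.02933), and 2.84% of all genes. A difference between the days in the age effect of these genes therefore depended on the test.

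The cull days themselves differed in Hamp. Young mice averaged 431 ± 201 CPM on the first day (SD, n = 5) and 709 ± 125 CPM on the second (SD, n = 5). For old mice the averages were 586 ± 221 CPM (SD, n = 5) and 891 ± 226 CPM (SD, n = 4). Its log2 fold change, second against first day, was 0.66 ± 0.21 (SE, adjusted p = 0.04767). Hamp was the only member of the 10 to pass, against 12.3% of all genes (5.72% higher and 6.55% lower on the second day). Tfr2 (-0.21, adjusted p = 0.05493), Slc39a14 (-0.58, adjusted p = 0.05782) and Ftl1 (0.25, adjusted p = 0.07785) passed at an unadjusted p under 0.05 only. The Hamp fold held when single mice were left out, at 0.57 to 0.77 on the log2 scale, while its adjusted p moved around the threshold (0.01525 to 0.09451). It passed in 5 of these 19 fits, those without 1180, 1182, 1183, 1237 or 1238. Without young mice 1184, 1186 and 1188 the Hamp difference between days was 0.44 (adjusted p = 0.1996), in a fit that called 0% of 12354 genes for cull day. With library totals alone, which called 8.92% of all genes, Tfr2 was called in its place.

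Ratios within a library do not depend on the scaling, and 3 were tested by relabelling ages within cull days in all 31752 ways. The ratio of Ftl1 to Fth1 counts was lower in old mice, with a mean log2 ratio of 0.60 ± 0.15 (SD, n = 9) against 0.76 ± 0.12 in the young (SD, n = 10). The difference, averaged over cull days, was -0.15 (exact permutation p = 0.00422, adjusted over the 3 ratios 0.00633, two-sided). The ratio of Tfrc to Tfr2, the uptake receptor against the sensing one, averaged -4.21 ± 0.35 at 5 months (SD, n = 10) and -4.88 ± 0.40 at 24 months (SD, n = 9). Here the difference was -0.63 (exact permutation p = 0.0005354, adjusted 0.001606). Young mice 1184 and 1188 had the highest Tfrc to Tfr2 ratios of all libraries, -3.62 and -3.68. The ratio of Hamp2 to Hamp did not differ beyond the spread, at -0.19 (exact permutation p = 0.6665). By day, the Tfrc to Tfr2 difference was -1.06 on the first (adjusted exact p = 0.02381) and -0.21 on the second (adjusted exact p = 0.2024). For Ftl1 to Fth1 it was -0.12 on the first (adjusted exact p = 0.2857) and -0.17 on the second (adjusted exact p = 0.04762).

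**Figure D3:**
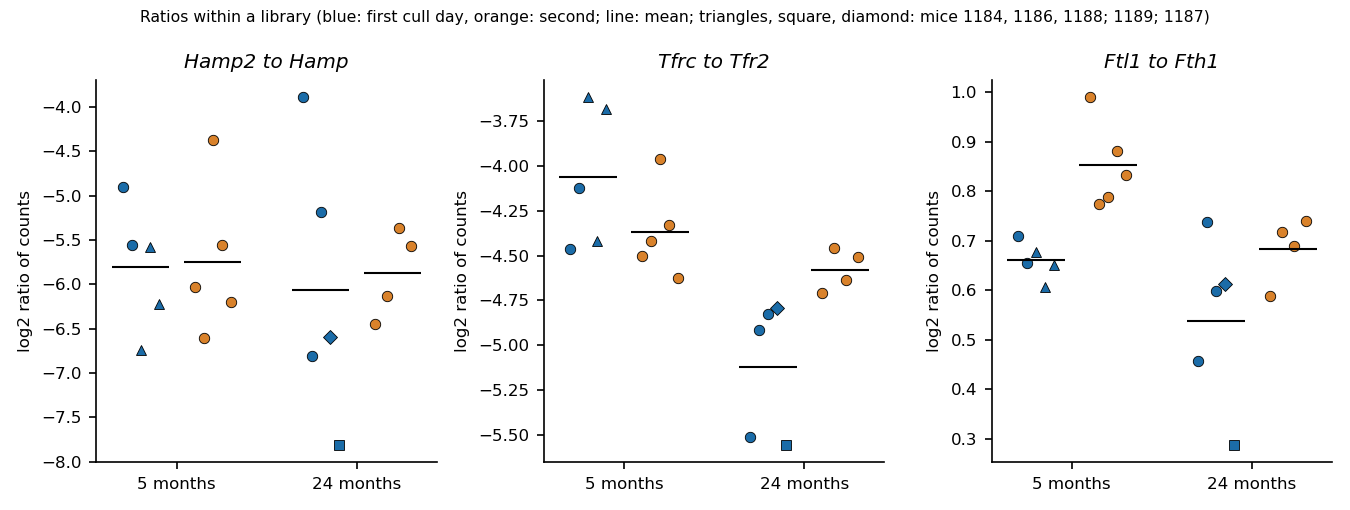
Log2 ratio of counts within each library (vertical axes, not starting at 0) for Hamp2 to Hamp, Tfrc to Tfr2 and Ftl1 to Fth1, by age and cull day, with lines at the means. Old mouse 1189 (square) is the lowest in all 3 panels, at -7.81, -5.56 and 0.29.

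Hamp was next set against transcripts that respond to its known regulators. The mean log2 CPM of Id1, Smad6, Smad7 and Atoh8, direct targets of BMP and SMAD signals, was 2.15 to 2.26 in young mice 1184, 1186 and 1188 and 2.84 to 4.02 in the other 16 mice. Over the 16 mice Pearson's r with Hamp was 0.30 (permutation p = 0.2503). Over all 19 mice it was 0.70 (permutation p = 0.00168, adjusted over 10 relations 0.0129) with a Spearman rho of 0.58 (permutation p = 0.01124, adjusted 0.0562), and 0.41 without mice 1186 and 1188, the farthest from the median (permutation p = 0.1043). The relation over all mice thus rested on the 3 young mice, which were low in the score and, in 1186 and 1188, lowest in Hamp. Within young mice r was 0.80 (n = 10, permutation p = 0.00258, adjusted 0.0129, rho 0.71) and within the first cull day 0.73 (n = 10, permutation p = 0.02036, adjusted 0.03393, rho 0.70), both with the 3 mice included. Within old mice r was 0.38 (n = 9, exact permutation p = 0.3095, rho 0.28), and within the second cull day 0.50 (n = 9, exact permutation p = 0.1711, rho 0.45), neither of which holds any of the 3.

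The acute phase score (mean log2 CPM of Saa1, Saa2, Orm1, Orm2 and Lcn2) put the same 3 young mice apart, at 10.1 to 11.6 against 3.76 to 8.62 in the others. Those 3 mice, highest for these transcripts, had Hamp at 471, 199 and 248 CPM, the lowest among young mice. Over sets that hold the 3 mice, r spans these separate clusters: it was -0.61 over all 19 mice (permutation p = 0.00972, adjusted 0.01944, rho -0.45), -0.87 within young mice (permutation p = 0.00622, adjusted 0.0169, rho -0.70) and -0.80 within the first cull day (permutation p = 0.00676, adjusted 0.0169, rho -0.85). Without the 2 mice of each set farthest from its median these were -0.41, -0.93 and -0.84. Within the second cull day r was 0.48 (n = 9, exact permutation p = 0.1937, adjusted 0.2421, rho 0.50). Within old mice r was -0.09 (n = 9, exact permutation p = 0.8112, adjusted 0.8112) with a rho of -0.13 (exact permutation p = 0.7435). Over the 16 other mice, chosen by the level of these same transcripts, r was -0.06, which is a description given with no p. Old mice 1236 and 1187 had scores of 8.62 and 8.47 with Hamp at 912 and 499 CPM.

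**Figure D4:**
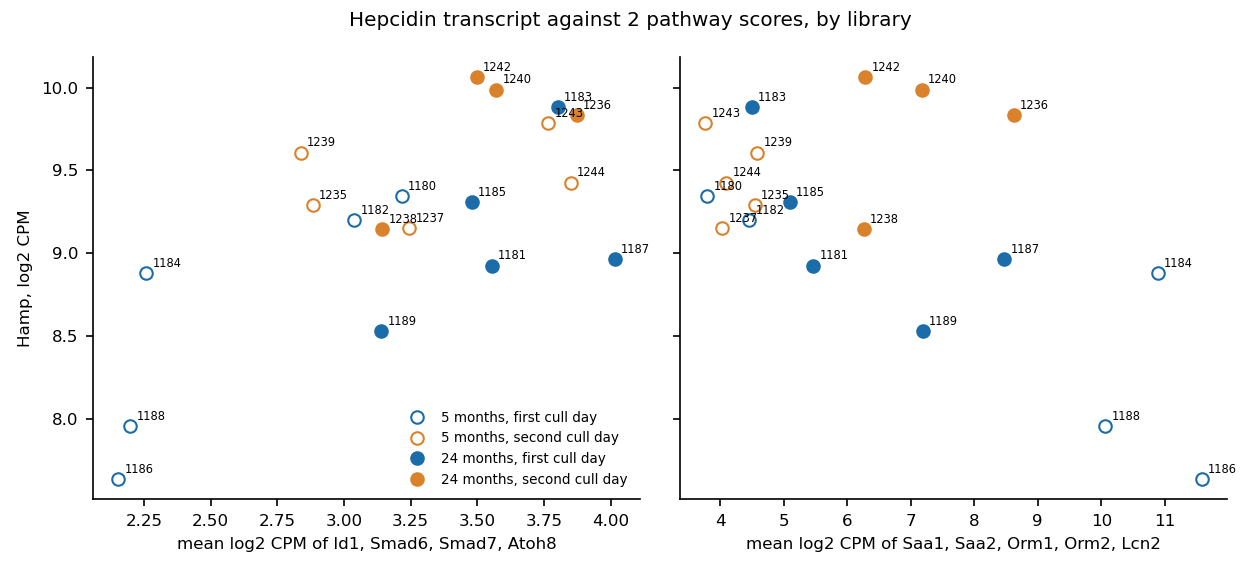
Hamp log2 CPM (vertical axis) against the mean log2 CPM of BMP and SMAD targets (left) and of acute phase genes (right) in each of the 19 libraries, labelled by mouse number, open for 5 and filled for 24 months, blue for the first and orange for the second cull day. Young mice 1184, 1186 and 1188 lie apart in both panels, at the low end of the left score and the high end of the right one.

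The related lists below are read against the 16.3% of all genes that were higher and the 14.5% that were lower in old mice, and no list is called particular from its count. The shares higher and lower were 6.9% and 6.64% with the other-cell covariate, and 1.88% and 1.79% on the first cull day alone. They were 12.2% and 7.15% on the second alone, 14.6% and 12.5% without the 3 young mice, and 15% and 11.5% with no cull day term. Among 19 tested genes of BMP and SMAD control of hepcidin, 6 rose with age, 1 fell and 12 did not pass (median log2 fold change 0.13), so that 7 of 19 passed, near the 30.9% over all genes. The ligand Bmp2 rose from 9.53 ± 2.62 to 15.7 ± 3.92 CPM (log2 0.72, adjusted p = 0.004053) and the ligand Bmp6, the main iron-dependent one, from 4.47 ± 1.36 to 6.47 ± 1.77 CPM (0.57, adjusted p = 0.02363). The co-receptor hemojuvelin, listed as Hfe2, rose from 76.0 ± 10.8 to 91.3 ± 11.9 CPM (0.28, adjusted p = 0.01932). The feedback inhibitor Smad6 rose (0.72, adjusted p = 0.01424), as did the targets Id1 (1.20, adjusted p = 0.03002) and Id3 (0.68, adjusted p = 0.0221). On the first cull day alone Id1 was at 1.97 (adjusted p = 0.04754) and Id3 at 1.11 (adjusted p = 0.03723). On the second Id1 was at 0.39 (adjusted p = 0.5803) and Id3 at 0.21 (adjusted p = 0.6018). The shared mediator Smad4 fell by 0.29 on the log2 scale (adjusted p = 0.005086). Smad7 (0.43, adjusted p = 0.1061), the hemojuvelin protease Tmprss6 (-0.12, adjusted p = 0.3017) and the BMP antagonist Fgl1 (1.04, adjusted p = 0.1592) did not pass. Fgl1 passed on the second cull day alone (2.44, adjusted p = 1.54e-05) and not on the first (-0.26, adjusted p = 0.8506). Smad7 passed on the first alone (0.98, adjusted p = 0.0491) and not on the second (-0.20, adjusted p = 0.3054). Endothelial cells are a known source of Bmp2 and Bmp6, and 9 of 12 endothelial markers were also higher. With the other-cell covariate 3 genes of the list rose and none fell, Bmp2 at 0.26 (adjusted p = 0.1987) and Bmp6 at 0.36 (adjusted p = 0.2683) not being among them. Without the 3 young mice 2 rose and 2 fell, and Id1 lost its call (0.66, adjusted p = 0.1832), as it did without old mouse 1187 (1.07, adjusted p = 0.05347).

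None of the 22 tested genes of interleukin 6, STAT3 and the acute phase passed in either direction in edgeR (median 0.09, 1 gene at an unadjusted p under 0.05, and 1 called by limma-voom and 0 by DESeq2). On the second cull day alone, which holds none of mice 1184, 1186 and 1188, 15 of the 22 rose (12.2% of all genes did). On the first alone none passed, with the other-cell covariate 3 fell and none rose, and with no cull day term 1 fell. The haemoglobin scavenger haptoglobin, Hp, was at 0.49 (adjusted p = 0.3888) over all mice and at 1.70 on the second day (adjusted p = 0.0005784). The haem scavenger hemopexin, Hpx, was at 0.61 (adjusted p = 0.1791) and 1.52 (adjusted p = 0.0003455). Saa1 was at -0.57 (adjusted p = 0.8543) and 3.34 (adjusted p = 0.000998), and the STAT3 feedback inhibitor Socs3 at -0.52 (adjusted p = 0.6496) and 0.61 (adjusted p = 0.5428). In edgeR the age by cull day interaction was 7.60 for Saa1 (unadjusted p = 0.0003073), 2.31 for Hp (unadjusted p = 0.001298) and 1.74 for Hpx (unadjusted p = 0.004776). For Socs3 it was 2.09 (unadjusted p = 0.182). After adjustment none of the 12269 genes passed in edgeR, while DESeq2 called 0.0815% and limma-voom 2.84% of all genes.

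Of 8 genes of iron regulatory proteins and ferritin turnover, 5 fell and none rose (median -0.20). Both iron regulatory proteins were among them: Aco1 fell from 241 ± 27.2 to 187 ± 27.5 CPM (-0.36, adjusted p = 0.006064, 7 of 9 old mice below every young mouse) and Ireb2 from 83.5 ± 14.2 to 69.8 ± 12.4 CPM (-0.26, adjusted p = 0.04985). Ncoa4, the receptor that takes ferritin to the lysosome, fell by 0.21 (adjusted p = 0.01948), Herc2, a ubiquitin ligase that acts on it, by 0.51 (adjusted p = 0.004769), and Skp1a, a ubiquitin ligase subunit, by 0.19 on the log2 scale. In the following fits fewer of the 8 fell, and a smaller share of all genes did too. On the first cull day alone 0 fell (1.79% of all genes), and on the second alone 1 (7.15%). With library totals alone 2 fell (9.53%), as with the other-cell covariate (6.64%). Without the 3 young mice, without old mouse 1187 and with the 1 CPM filter 3 fell each (12.5%, 12.1% and 13.8%). Ireb2 lost its call without the 3 young mice (adjusted p = 0.1304) and without old mouse 1187 (adjusted p = 0.0755).

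In other iron transport 9 of 15 genes passed the filter, and 2 rose and none fell (median 0.27). Steap2, a ferrireductase, rose from 6.74 ± 1.30 to 12.3 ± 1.61 CPM (0.87, adjusted p = 5.365e-05), and all 9 old mice were above all 10 young mice, which held for 0.994% of genes tested. With the other-cell covariate 2 rose and 2 fell, and with DESeq2 4 rose and 1 fell (16.3% and 17.2% of all genes). The importer Slc39a8 rose by 0.27 (adjusted p = 0.02475). Transferrin itself, Trf, was at 16844 ± 3779 CPM in young and 20951 ± 2965 CPM in old mice (0.32, adjusted p = 0.06572), and passed on the second cull day alone (0.57, adjusted p = 0.003781). The ferrireductase Steap3 was at 21.6 ± 2.98 and 20.1 ± 4.65 CPM (-0.10, adjusted p = 0.5787).

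Of 15 tested haem genes 1 rose (Ppox, haem synthesis, 0.30) and 4 fell (median -0.07), and with the other-cell covariate 2 rose and 2 fell. The exporter Abcg2 fell by 0.47 (adjusted p = 0.0006692), and among the synthesis enzymes Cpox fell by 0.37 (adjusted p = 0.01156) and Uros by 0.35 on the log2 scale. Hmox1, which frees iron from haem, was at 12.6 ± 6.63 CPM in young and 31.3 ± 43.1 CPM in old mice (1.25, adjusted p = 0.0546). By day the Hmox1 difference was 1.40 on the first (adjusted p = 0.3082) and 1.05 on the second (adjusted p = 0.004675). Old mouse 1187, with the highest macrophage sum, had 144 CPM, and with the other-cell covariate the Hmox1 difference was -0.76 (adjusted p = 0.01764). Of 16 mitochondrial iron and iron-sulfur genes none rose and 4 fell (median -0.10). With the other-cell covariate 1 rose and 1 fell, and on the first cull day alone none passed. Nfs1, the cysteine desulfurase that supplies the sulfur, fell from 53.9 ± 2.63 to 42.8 ± 3.35 CPM (-0.33, adjusted p = 0.0002325), with all 9 old mice below all 10 young mice, as for 0.734% of genes tested. Glrx5 (-0.30, adjusted p = 0.008811), Bola3 (-0.27, adjusted p = 0.01918) and the inner membrane transporter Abcb10 (-0.30) were the other 3. At an unadjusted p under 0.05 were 8 of 15 genes in the haem list and 5 of 16 in the mitochondrial list, against 42.3% of all genes.

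**Figure D5:**
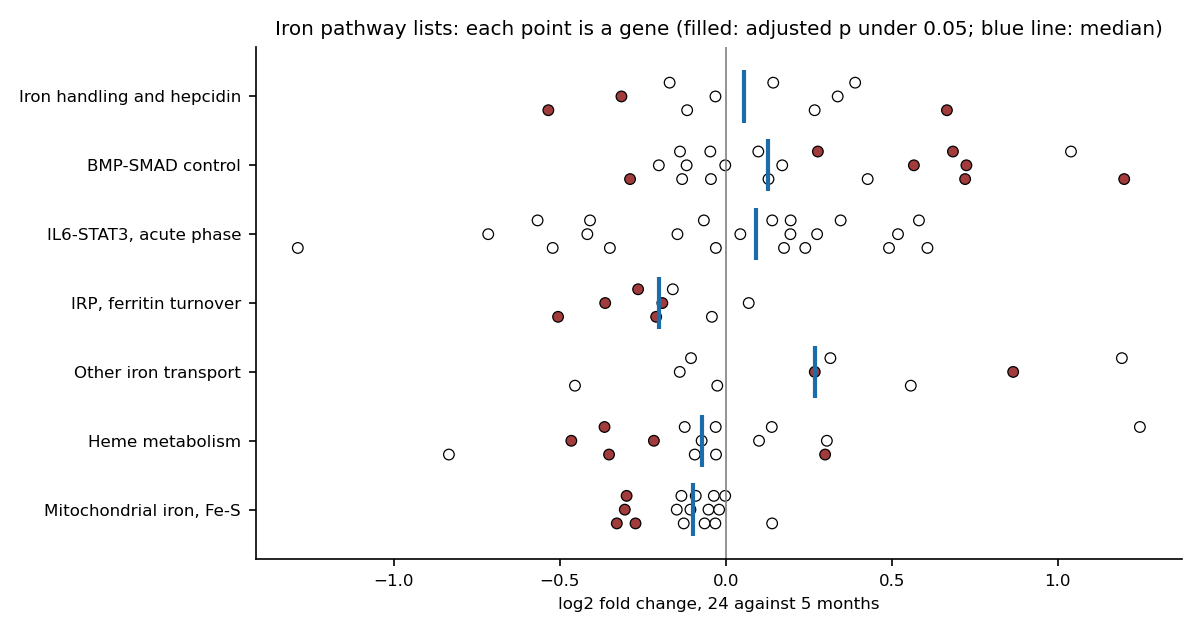
Log2 fold change, 24 against 5 months (horizontal axis), of each tested gene in the iron gene set and 6 related lists, filled where the adjusted p was under 0.05, with a blue line at each median. In this fit the called genes of the iron regulatory protein and mitochondrial lists all lie below 0, and those of the transport list above it.

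Per kilobase of counted exons the order of levels was led by ferritin and hepcidin in both ages. In young mice the CPM per kilobase was 1945 ± 368 for Ftl1, 1422 ± 537 for Hamp, 1175 ± 151 for Fth1, 390 ± 178 for Cp and 120 ± 12.8 for Tfr2 (SD, n = 10). Ftl1 was above Hamp in 9 of 10 young mice and Hamp above Fth1 in 8 of 10, so these neighbours overlapped, while Fth1, Cp and Tfr2 kept their order in every young mouse. Then came Slc39a14 at 39.5 ± 17.0, Hamp2 at 29.4 ± 24.9 and Slc40a1 at 25.3 ± 5.34, which overlapped, followed by Hfe at 14.2 ± 0.94 and Tfrc at 4.87 ± 1.43 CPM per kilobase. Slc40a1 was above Hfe and Hfe above Tfrc in all 10 young mice, while Hamp2 was below Hfe in young mice 1184, 1186, 1188 and 1237.

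In old mice Hamp, at 1799 ± 656 CPM per kilobase (SD, n = 9), had the highest mean but was above Ftl1 (1530 ± 181) in only 5 of 9 mice. Slc40a1, the eighth in young mice, was the sixth in old mice, at 40.2 ± 11.7 CPM per kilobase, and above Slc39a14 (36.1 ± 15.2) in 7 of 9. Tfrc was the lowest again, at 3.34 ± 0.63 CPM per kilobase, below Hfe in all 9 old mice. Tfr2 was thus the more abundant of the transferrin receptor transcripts at either age, its lowest library (104) lying above the highest for Tfrc (7.46).

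Across the 19 libraries and 11073 genes of at least 1 CPM, the genes whose log2 CPM was most like that of Hamp were Epb41l4aos (Pearson's r 0.91), Bdh2 (0.90), Ggnbp1 (0.89), Rpl22 (0.89) and Hyi (0.88). Bdh2 encodes a dehydrogenase linked to a mammalian iron-binding siderophore. For Tfrc they were Kmo (0.85), Fh1 (0.83), Fastkd2 (0.83), Acmsd (0.81) and Utp6 (0.80), and for Slc40a1 Inpp5k (0.89), Inafm1 (0.86), Ilvbl (0.86) and Serpinb8 (0.85). Among the members the closest pair was Fth1 and Ftl1 (0.85) and the most opposed Hamp and Slc39a14 (-0.77). These values describe the same 19 libraries, which share age, cull day and the 3 young mice, and carry no test.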

How the data were processed

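Poly(A) RNA of hepatocytes was sequenced on a stranded paired-end kit, per the labels' protocols. The authors deposited estimated counts per gene, written by HOMER analyzeRepeats.pl for mm10 over exons of RefSeq transcripts, condensed to genes and left raw, per the file headers. STAR, HOMER and GRCm38 are named in the submitters' processing notes. Versions, the strand setting and the handling of reads with several matches are not given in the sources used here, so near-identical or overlapping genes are uncertain. Counts were multiples of 0.5 (29.2% of cells not whole) and were rounded, so tests planned for counts ran on rounded values. Genes took 78.3% to 86.5% of the total in each column name. No 2 libraries of an age agreed within sampling noise (smallest chi-square per degree of freedom 14.5).

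Age was tested with edgeR 4.0.16 (R 4.3.3) quasi-likelihood, TMM scaling, filterByExpr (minimum count 10), cull day as covariate and Benjamini-Hochberg adjustment over 12269 genes. Cull day came from the same fit, and the interaction from a fit with that term added. Standard errors are the absolute log2 fold change over the square root of F. Scores used log2 CPM with a prior count of 2, and ratios an added count of 0.5. Permutation tests were two-sided, exact or with 100000 resamples, and 3.15e-05 is the smallest p that relabelling within cull days allows. The acute phase relation was planned over all libraries, and its main value is that of old mice because the score splits the libraries. Genes named are all members, the 3 smallest p past the threshold in each list, a fixed set of pathway genes and the 5 genes most like Hamp, Tfrc and Slc40a1; Id3, Skp1a, Ppox, Uros and Abcb10 were added after their values were seen, to complete counts. Some genes that this rule names are not reported here. Members and lists were chosen with earlier results of these data known. Scripts were tested on simulated data. Alternatives used limma 3.58.1, DESeq2 1.42.0, other scaling and filters, subsets of mice and an other-cell covariate, which was the mean log2 CPM of tested macrophage, endothelial and stellate markers. Python 3.11.15, pandas 2.3.3 and scipy 1.17.1 were used.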

Additional observations from a re-analysis of the deposited data

Results flagged for a closer look

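A sample was singled out where its gap to the nearest other of its age exceeded Dixon's 95% critical value for the group's range. Of 82 groups tested (41 quantities in 2 ages) 8 did so, and chance alone singles out about 1 in 20 groups. Tfr2 was at 530.03 CPM in young mouse 1186, against 452.68 CPM in the next. Slc39a14 was at 373.17 CPM in old mouse 1189, against 181.4 CPM in the next. Smad4 was at 34.49 CPM in young mouse 1180, and Smad6 at 7.89 CPM in young mouse 1244 and at 12.79 CPM in old mouse 1187. Socs3 was at 178.52 CPM in young mouse 1186 and at 64.11 CPM in old mouse 1189. Hmox1 was at 144.27 CPM in old mouse 1187, against 33.31 CPM in the next.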

How the results depend on the processing

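No paired analysis was possible because library numbers are not shared between ages. The 3 members called by age became 5 with limma-voom, which added Fth1 and Tfr2. Leaving out single mice kept 189 of 190 age directions and calls of the members. The exception was Hamp2, whose log2 fold change was -0.0814 without mouse 1181 and reached 0.5419. The 1 member called by cull day became 0 with no filter (5.45% of all genes called) or without young mice 1184, 1186 and 1188 (0%), 4 with DESeq2 (16.8%), 3 with limma-voom (17.7%), 2 without old mouse 1187 (13.1%), and 0 to 4 without single mice (4.97% to 19%). The 0 interaction calls became 2 with limma-voom. The Ftl1 to Fth1 ratio missed the threshold on the first cull day alone (-0.12), and the Tfrc to Tfr2 ratio on the second (-0.21). Without single mice these ratios ranged from -0.17 to -0.11 and from -0.69 to -0.58, and Hamp2 to Hamp from -0.4632 to 0.02676 (without mouse 1189). The relation of Hamp with BMP and SMAD targets was 0.41 without the 2 farthest mice and 0.30 without the 3 young mice. The cause of these changes was not tested.

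Age directions reversed as follows, in log2 fold change. On the first cull day alone Hfe was 0.0067, Cp -0.18, Fgl1 -0.26, Hp -0.62 and Hpx -0.23. On the second alone Slc39a14 was 0.13, Smad7 -0.20, Socs3 0.61 and Saa1 3.34. Without the 3 young mice Hamp2 was -0.15, Slc39a14 0.22, Socs3 1.58 and Saa1 3.07, and without old mouse 1187 Saa1 was 0.15. With the other-cell covariate Cp was -0.0673, Tmprss6 0.0119, Hp -0.20, Hpx -0.0006 and Hmox1 -0.76. With limma-voom Socs3 was 0.18 and Saa1 0.34, and with library totals alone Hfe was 0.0158. Library totals moved the median of all genes to 0.04 and the split of calls to 2098 higher and 1169 lower, from 2005 and 1780. Depth limited Hamp2 most among the members, with 31 counts in old mouse 1189.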

Other observations

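Alas2, the haem synthesis enzyme usually tied to red cell precursors, was at 122 CPM in young and 85.1 CPM in old mice and fell by 0.50 on the log2 scale (adjusted p = 0.0009416 by edgeR). Some other red cell genes were near 0 in the same libraries: Epb42 had 0 counts in every library and Slc4a1 had at most 2 counts. Hba-a1 was at 0.499 CPM in young and 1.88 CPM in old mice, and its difference passed in the opposite direction, at 1.93 (adjusted p = 0.007349). Of 4 tested red cell markers 3 were higher and 1 lower in old mice, against 16.3% and 14.5% of all genes. In old mouse 1187 the 9 red cell markers summed to 82.5 CPM, of which Alas2 made up 67.5 CPM. In young mouse 1235 they summed to 153 CPM, of which Alas2 made up 152 CPM.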
